A study of Mus musculus with 3 samples.

Results

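Focal H3K4me1 regions that enclose a single H3K27ac region were described in hematopoietic stem cells, the rare bone marrow cells from which all blood lineages arise. A region was taken when its deposited H3K4me1 interval lay on chromosomes 1 to 19, was 500 to 2000 bp wide, and overlapped exactly 1 deposited H3K27ac interval that lay wholly inside it. This held for 10998 of the 155027 H3K4me1 regions. There were 151952 H3K4me1 regions on these chromosomes and 73633 of the stated width, so the focal regions made up 14.9% of the regions of that width (95% interval 14.7 to 15.2%). The same nesting, without a limit on width, was met by 11.1% of all autosomal H3K4me1 regions.

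C57BL/6 mice aged 24 months were the source, and their bone marrow cells were sorted as SP-KSL-CD150+. SP denotes the side population, KSL the gate for c-Kit, Sca-1 and absence of lineage markers, and CD150 a surface antigen of stem cells. No allele, drug or other treatment is given for them in the labels. Chromatin immunoprecipitation sequencing was done with 1 library for H3K27ac (antibody Abcam ab4729) and 1 for H3K4me1 (Abcam ab8895), beside an input library that was not analysed here. The labels call each a technical replicate, of 1 biological replicate, and the number of mice pooled is not given in the sources used here. A single library per mark leaves no replicate against which to check a difference, so no p-value is printed. The calls of both libraries chose the regions, so every value that follows is a description of these libraries and no result was tested.

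An enhancer is a stretch of regulatory DNA that raises transcription of a gene from a distance. The nucleosomes around it carry H3K4me1, monomethylation of lysine 4 of histone H3, both when it is active and when it is only primed. H3K27ac, acetylation of lysine 27 on the same histone, is deposited by the coactivators p300 and CBP and marks active enhancers as well as active promoters. At strongly active sites the nucleosomes at the centre are displaced or carry other methylation states, so the mark signals can fall at the centre and rise at the sides. Some enhancers of mature blood lineages carry H3K4me1 already in their progenitors, before H3K27ac appears.

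No genes or sequences are given for the regions, because positions are on the mouse build mm9 and no mm9 genome or annotation was used here. Distance to a gene start was therefore not measured, and the word enhancer rests on the pair of marks alone. The regions are called focal H3K4me1 regions below. Focal refers to the width of the called interval, not to its surroundings. Another H3K4me1 region lay within 1 kb of 49.3% of them, against 50.5% of regions of the same width limits without H3K27ac, 67.4% of those with 1 protruding H3K27ac region and 61.4% of those with 2 or more.

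Depth behind the calls was modest. The H3K27ac list held 93413 regions and its weakest summit held 8 reads, and the weakest H3K4me1 summit held 10. These reads were recovered from the deposited fold and −log10 p values, as described with the processing. At the focal regions the H3K4me1 summit held a median of 26 reads (quartiles 22 and 31) and the H3K27ac summit 13 reads (quartiles 11 and 15). The nested H3K27ac region rested on 10 reads or fewer in 19.8% of focal regions, against 20.7% of all autosomal H3K27ac regions. Intervals of shares are exact Clopper-Pearson 95% intervals over regions. They cover counting error only: the reads carry no molecular identifiers, and regions of 1 library are not separate samples.

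The focal regions filled the whole range of allowed widths. Their median width was 1249 bp (quartiles 928 and 1584 bp), and together they spanned 13.8 Mb. Among the regions of the same width limits, 45221 (61.4%) met no H3K27ac region, 14670 (19.9%) met 1 that reached past an end, and 2744 (3.73%) met 2 or more. The regions without H3K27ac were narrower, with a median of 850 bp (quartiles 643 and 1183 bp). The shares by width below are not corrected for the length in which an H3K27ac interval could fall. Nesting of a single acetylated region was found in 6.13% of the 23341 regions of 500 to 749 bp (interval 5.83 to 6.45%). From 1000 to 1249 bp the share was 17.3% (interval 16.7 to 18.01%). It was 29.0% of the 5315 regions of 1750 to 2000 bp (interval 27.8 to 30.2%). The share with 1 H3K27ac region past an end stayed between 17.8% and 21.7% over the same bins.

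**Figure D1:**
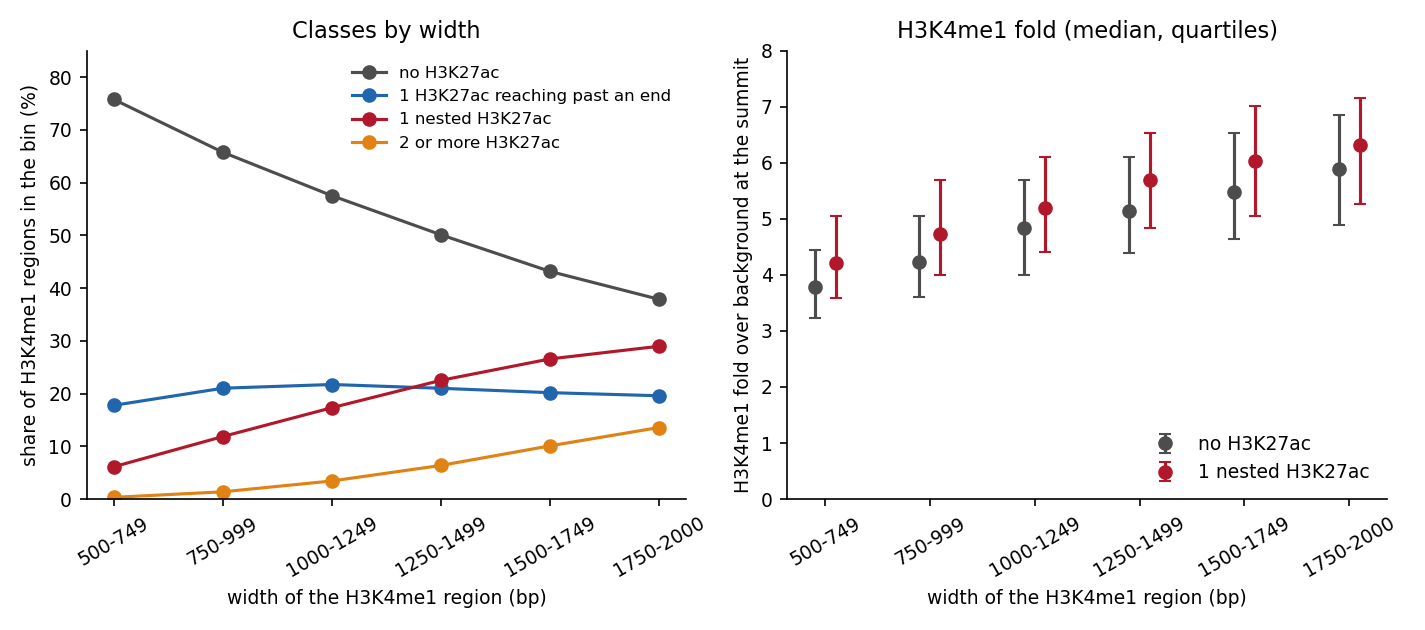
Left, the share of autosomal H3K4me1 regions in each width bin (bp) that met no, 1 nested, 1 protruding or several H3K27ac regions. Right, the authors' H3K4me1 fold at the summit, with points for medians and bars for quartiles, in regions with 1 nested H3K27ac region and with none. Nesting rose from 6.13% to 29.0% across the bins, and the median fold was higher with nested H3K27ac in each bin while the quartile ranges overlapped.

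The limits of width fell on a continuous range. Of the 3088 regions up to 25 bp below the lower limit, 109 enclosed a single H3K27ac region, with a median H3K4me1 fold of 3.87 and H3K27ac fold of 3.55. Of the 2836 regions in the first 25 bp above it, 115 did so, with medians of 4.002 and 3.55. At the upper limit the rule took 140 of the 475 regions in the last 25 bp (median H3K4me1 fold 6.50, H3K27ac fold 4.43). It left out 119 like-nested regions among the 449 up to 25 bp wider (6.32 and 4.14). The limit of nesting likewise cut through similar regions. In 878 focal regions the nested interval ended 25 bp or less from an end of the H3K4me1 interval, with a median H3K27ac fold of 3.94. In 863 regions outside the set the H3K27ac interval passed the end by 1 to 25 bp, with a median of 4.14. The 13807 regions where it passed by more than 25 bp had a median H3K27ac fold of 7.89.

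H3K4me1 was moderately enriched at the focal regions. Fold here is the authors' ratio of the pileup at the summit to the local background, and a mark that is weak in all cells cannot be told apart from one that is strong in few. At these low read numbers fold moves largely in steps of whole reads. Equal medians, here and below, are therefore only a coarse match. The median H3K4me1 fold was 5.28 (quartiles 4.42 and 6.45, range 1.85 to 12.4). Regions of 500 to 2000 bp without H3K27ac had a median of 4.41 (quartiles 3.58 and 5.27), which gives a ratio of 1.20. Part of this ratio went with width. Within bins of 250 bp it lay between 1.07 and 1.12, with a mean of 1.10 weighted by the number of focal regions. From 500 to 749 bp the medians were 4.21 (quartiles 3.58 and 5.05) and 3.79 (quartiles 3.23 and 4.44). From 1750 to 2000 bp they were 6.32 (quartiles 5.27 and 7.16) and 5.90 (quartiles 4.90 and 6.85). The quartile ranges overlapped in all 6 bins. Regions with 1 protruding H3K27ac region had a median H3K4me1 fold of 5.27, close to that of the focal regions, although they were narrower with a median of 980 bp. Those with 2 or more had 5.90. Within the width bins the medians of both classes were at or above that of the focal regions. From 500 to 749 bp they were 4.42 and 4.23, and from 1750 to 2000 bp 6.32 and 6.42. A higher H3K4me1 fold than without H3K27ac was thus not particular to the focal regions.

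Read in the other direction, nesting was commoner where H3K4me1 was stronger. It was found in 6.02% of regions under 3-fold (304 of 5049, interval 5.38 to 6.71%). From 4-fold to under 5-fold it was found in 13.1% (2726 of 20785). At 8-fold or more it was found in 27.8% (679 of 2444, interval 26.01 to 29.6%). Regions without any H3K27ac fell over the same classes, from 81.8% under 3-fold to 29.0% at 8-fold or more. Regions with H3K27ac in other arrangements thus became commoner too, and the rise is not particular to nesting. Within each of the 6 width bins, nesting was also commoner at 8-fold or more than under 4-fold, and the intervals did not overlap. Among regions of 1250 to 1499 bp, nesting was seen in 16.1% under 4-fold (interval 14.0 to 18.3%), against 29.1% (interval 25.1 to 33.3%) at 8-fold or more. Among regions of 1000 to 1249 bp it was seen in 12.9% under 4-fold (interval 11.6 to 14.4%), against 18.7% (interval 14.9 to 23.0%) at 8-fold or more. In that bin the share was highest from 6-fold to under 8-fold, at 20.3% (interval 18.8 to 21.9%). Among regions of at least 8-fold, width still mattered, with 17.9% at 500 to 749 bp (17 of 95, interval 10.8 to 27.1%) and 32.6% at 1750 to 2000 bp (205 of 629, interval 28.9 to 36.4%).

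The nested H3K27ac regions were short and of ordinary strength. Their median width was 329 bp (quartiles 240.3 and 488 bp), and they covered a median of 30.2% of the enclosing H3K4me1 region (quartiles 20.7 and 43.9%). In sum they acetylated 4.46 Mb, or 32.4% of the length of the focal regions. The narrowest nested regions, at 185 bp, were as narrow as any in the H3K27ac list. The median H3K27ac fold was 3.84 (quartiles 3.25 and 4.64), and the same median of 3.84 was found over all 92455 autosomal H3K27ac regions (quartiles 3.25 and 5.32).

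The upper range of acetylation was thin among the nested regions. A fold of 6 or more was reached by 712 of them (6.47%, interval 6.02 to 6.95%), against 18.6% of all autosomal H3K27ac regions. A fold of 10 or more was reached by 52 (0.473%, interval 0.353 to 0.620%), against 7.75% overall. The rule itself favours this, since a nested region must be narrower than 2000 bp and strong regions are wide. Single H3K27ac regions nested in H3K4me1 regions over 2000 bp numbered 5122, had a median fold of 4.14 (quartiles 3.55 and 5.32), and reached 10-fold in 2.15%. Those that reached past an end of H3K4me1 or met several H3K4me1 regions numbered 23884, had a median of 5.39 (quartiles 3.84 and 10.05), and reached 10-fold in 25.3%. The 25909 H3K27ac regions without H3K4me1 were weaker than the nested ones in the median, at 3.48 (quartiles 2.95 and 3.84). They reached 10-fold more often than the nested ones, in 1.64%, and their median width was 251 bp.

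**Figure D2:**
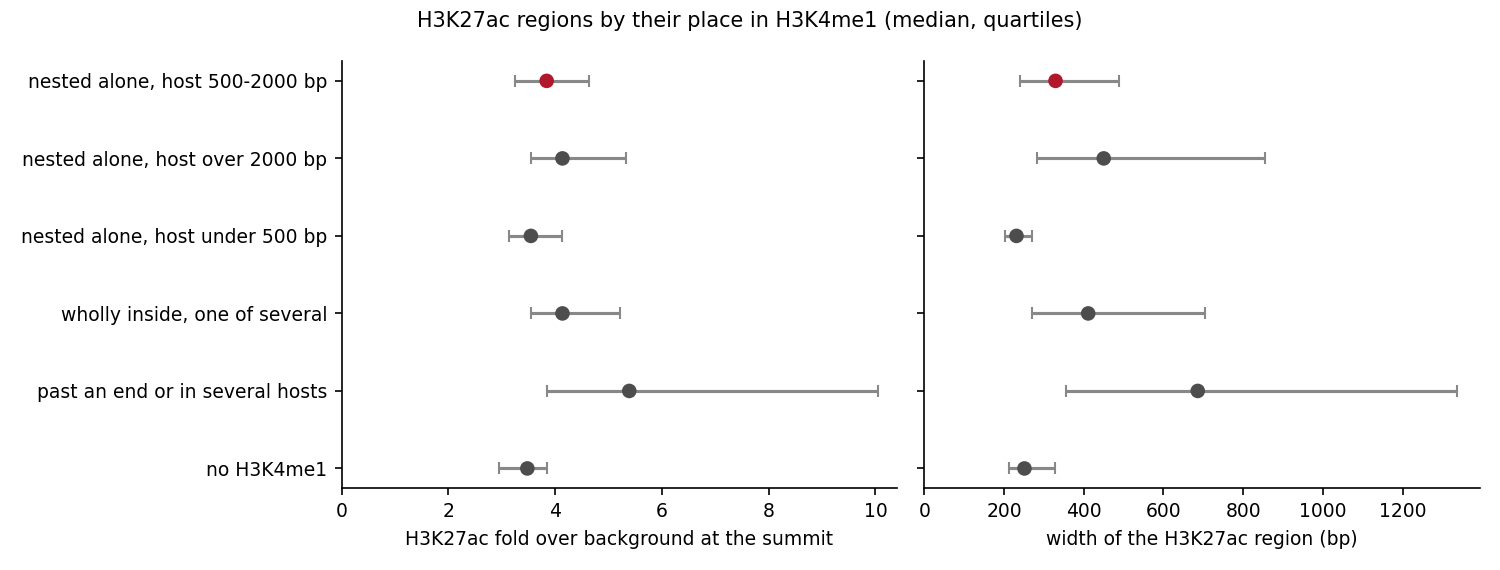
H3K27ac regions of chromosomes 1 to 19 by their place relative to H3K4me1, with the authors' fold at the summit (left) and the width in bp (right). Points are medians and bars quartiles, and the red point marks the regions nested in focal H3K4me1 regions. Their median of 3.84 lies between 3.48 for H3K27ac without H3K4me1 and 5.39 for H3K27ac past an end or in several hosts.

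Strong H3K4me1 in a focal region went with only slightly stronger H3K27ac. In the 20% of focal regions with the lowest H3K4me1 fold (1.85 to 4.21) the median H3K27ac fold was 3.55 (quartiles 3.25 and 4.14). In the 20% with the highest (6.74 to 12.4) it was 4.14 (quartiles 3.55 and 5.02). The same groups differed in width, with medians of 916 and 1532 bp. Over the 10998 regions the folds of the marks had a Pearson correlation of 0.171 and a Spearman correlation of 0.168. These points all come from the same pair of libraries, and at these read numbers so weak a relation is no finding. Acetylated width followed acetylated fold more closely, with a Spearman rho of 0.462. Nested regions under 3-fold had a median width of 251 bp, and the 143 at 8-fold or more had a median of 957 bp and covered 67.9% of the H3K4me1 region.

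The summits of the marks seldom coincided. The rule keeps them near each other, since both lie inside the same H3K4me1 interval of at most 2000 bp. The median distance between the H3K27ac and the H3K4me1 summit was 207 bp (interval of the median 201 to 213 bp, quartiles 84 and 399 bp). The largest distance was 1509 bp. Summits lay within 50 bp of each other in 16.0% of focal regions (interval 15.3 to 16.7%) and within 100 bp in 29.1% (interval 28.3 to 29.98%). Over all autosomal H3K27ac regions, 10.7% had a summit within 100 bp of an H3K4me1 summit. Among H3K27ac regions that lay wholly inside an H3K4me1 region outside the focal set, the share was 12.0%. Neither share is like for like with that of the focal regions. Both include H3K27ac regions in H3K4me1 regions of other widths or several to an H3K4me1 region. The share over all H3K27ac regions also includes those without H3K4me1. In 16.9% of focal regions (1861) the summits were more than 500 bp apart. The counts fell steadily with distance, from 1728 regions below 50 bp to 869 from 200 to under 250 bp. The spacing of nucleosomes cannot be read from these counts, since summits rest on few reads and regions of all widths are pooled.

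This closeness scaled with the width of the region. The median distance was 123 bp in regions of 500 to 749 bp, 209 bp from 1000 to 1249 bp, and 331 bp from 1750 to 2000 bp. As a share of the width it varied little, between 17.0% and 19.5% over the 6 bins. The share of summits within 100 bp was 44.2% in the narrowest bin and 19.6% in the widest. Outside the width limits the order went on, with 65.0% for single nested H3K27ac regions in H3K4me1 regions under 500 bp (738 regions) and 14.3% in those over 2000 bp.

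Relative to width, the distance between summits differed little between classes of H3K27ac fold. Its relation to H3K4me1 fold was not separated from width. Focal regions with a nested H3K27ac region under 3-fold had a median distance of 206 bp (quartiles 90 and 400.5 bp), and those from 4-fold to under 6-fold had 203 bp (quartiles 81 and 396 bp). At 8-fold or more it was 270 bp (143 regions, quartiles 92.5 and 475 bp), in regions of greater width, at 1612 bp in the median against 1158 bp. Relative to width these distances were 19.97%, 17.2% and 18.7%. Conversely, regions with summits at most 100 bp apart and regions with summits over 500 bp apart had the same median H3K27ac fold of 3.84. Their median H3K4me1 folds were 5.37 and 5.41, and their median widths 1123 and 1520 bp. H3K4me1 fold rose with width over the focal regions, with a Spearman rho of 0.423. Close medians at such unlike widths therefore do not show that H3K4me1 fold and summit distance are unrelated.

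The H3K4me1 summit fell inside the nested H3K27ac region in 5524 focal regions (50.2%, interval 49.3 to 51.2%). Over all regions of 500 to 2000 bp that met H3K27ac the share was 47.2%. The share rose with the strength of acetylation, from 39.0% for nested regions under 3-fold to 86.0% at 8-fold or more, and the acetylated part of the H3K4me1 width rose beside it, from a median of 24.1% to 67.9%.

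Both summits tended towards the middle of the H3K4me1 interval. The H3K27ac summit lay in the middle 20% of the interval in 31.1% of focal regions (3420, interval 30.2 to 31.97%) and in the outermost 20% at either end in 9.27% and 8.37%. The rule limits summits near the ends, since a nested region cannot start outside the interval. How much of the low share at the ends comes from the rule was not tested. In these outermost parts the H3K4me1 summit lay in 10.9% and 9.21% of the same regions. The H3K4me1 summit lay in the middle 20% in 29.0% of the same regions (interval 28.2 to 29.9%). In regions of 500 to 2000 bp without H3K27ac it did so in 26.6% (interval 26.2 to 27.03%). Those regions were narrower, with a median of 850 bp against 1249 bp, and the shares were not matched for width. Along the chromosome the H3K27ac summit lay at the lower coordinate in 5394 focal regions (49.0%, interval 48.1 to 49.98%) and at the higher in 5579 (50.7%, interval 49.8 to 51.7%). In 25 both summits lay at the same base.

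**Figure D3:**
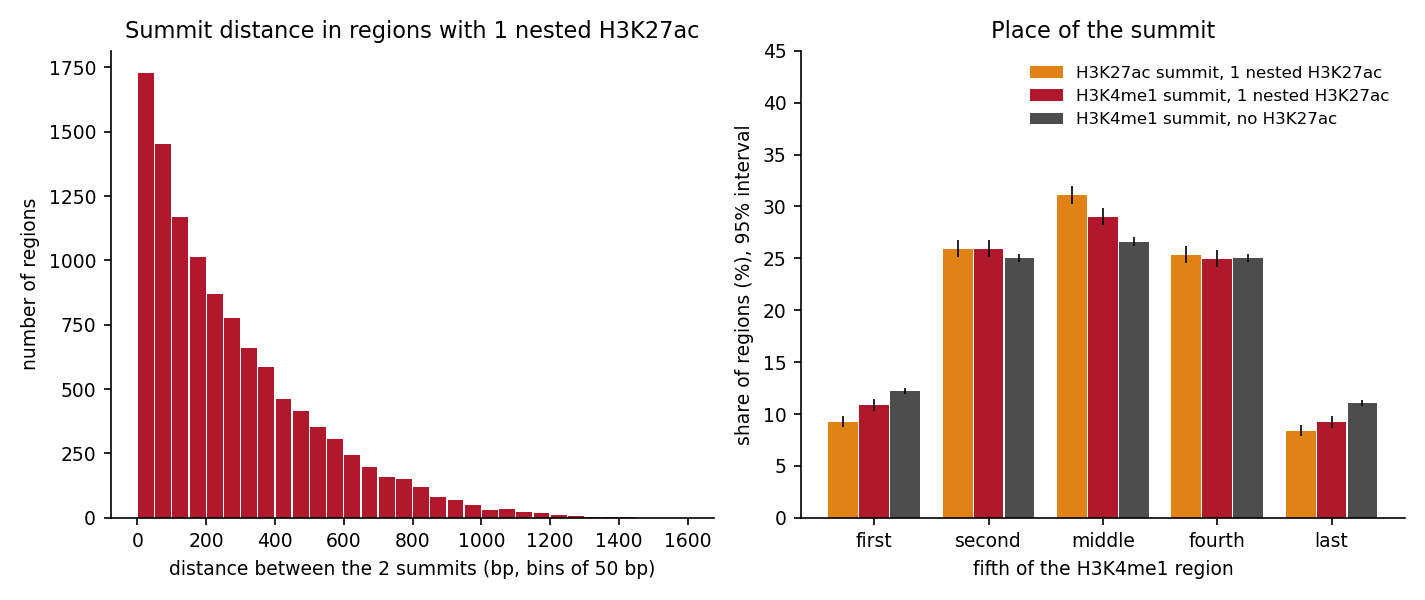
Left, number of focal regions by the distance in bp between the H3K27ac and the H3K4me1 summit, in bins of 50 bp. Right, share of regions (%) with the summit in each of 5 equal parts of the H3K4me1 interval, with exact 95% binomial intervals, for both summits of the focal regions and for the H3K4me1 summit of regions without H3K27ac. The first bin holds 1728 regions and the counts fall from there, and the H3K27ac summit is in the middle part in 31.1%.

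That H3K4me1 reaches past the nested region on both sides is set by the rule, and only the length of these flanks was left to vary. The shorter flank had a median of 183 bp (quartiles 82 and 330 bp) and the longer a median of 590 bp (quartiles 377 and 827 bp). Both flanks were at least as long as the DNA of a nucleosome core in 6420 focal regions (58.4%, interval 57.4 to 59.3%). The intervals shared an end in 33. The median shorter flank grew from 72 bp in the narrowest bin to 372 bp in the widest.

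Seen from the H3K27ac summit, focal regions had H3K4me1 at the centre and protruding ones had it more often at the sides. By the rule all focal regions had H3K4me1 at the summit. The protruding class is likewise set by its definition, since its H3K27ac region passes an end of the H3K4me1 region. Its H3K27ac summit lay inside that H3K4me1 region in 35.7%. H3K4me1 regions to the lower and to the upper side are pooled below. The shares therefore do not show that a single summit had H3K4me1 on both sides. At 500 bp to the lower and to the upper side 60.04% and 60.6% were inside an H3K4me1 region, at 1 kb 27.8% and 29.0%, and at 2 kb 20.6% and 20.6%. Around H3K27ac regions that reached past an end, H3K4me1 covered 40.8% of summits, 59.3% and 59.7% of positions at 750 bp, and 55.3% and 56.4% at 1 kb. Those protruding regions were stronger, with a median H3K27ac fold of 7.39 (quartiles 4.43 and 12.1), and 12956 distinct H3K27ac regions stood behind the 14670 H3K4me1 regions. Their summits lay a median of 606 bp from that of the H3K4me1 region (quartiles 331 and 919 bp) and within 100 bp in 7.66%.

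**Figure D4:**
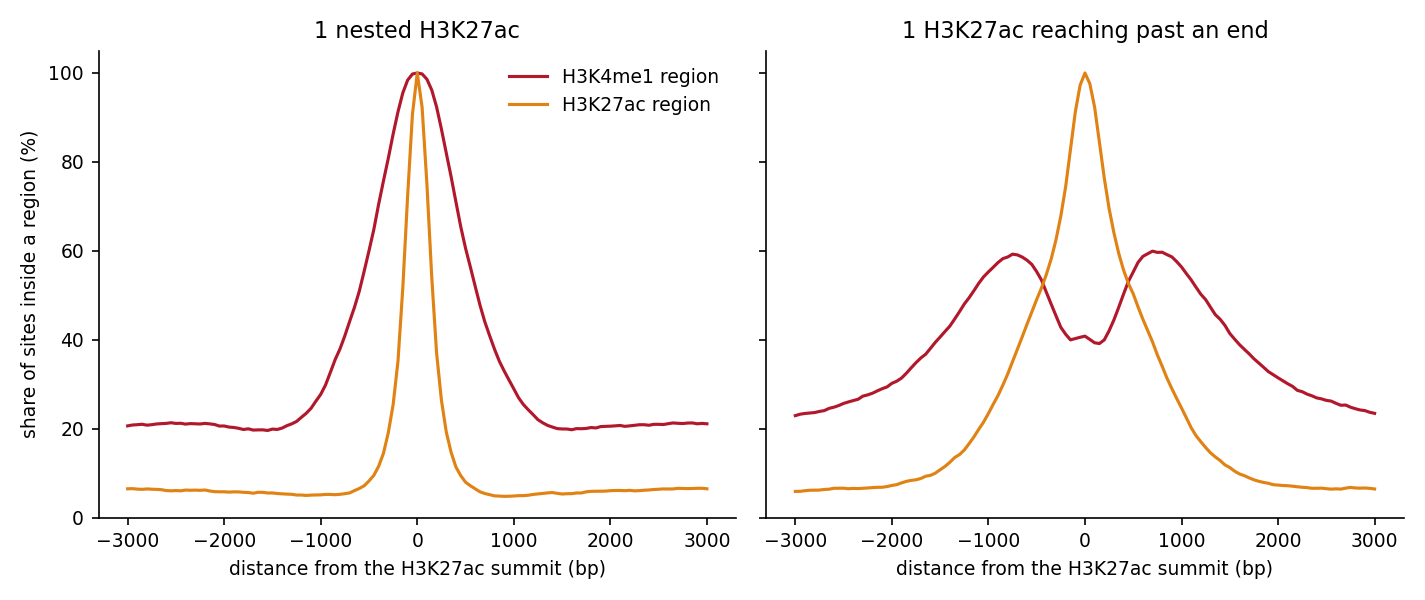
Share of sites (%) inside a called H3K4me1 or H3K27ac region by distance in bp from the H3K27ac summit, for focal regions (left) and for H3K4me1 regions whose single H3K27ac region reached past an end (right). H3K4me1 falls from the summit outwards to 20.6% at 2 kb on the left. On the right it is lower at the summit, at 40.8%, than at 750 bp to either side, with H3K4me1 regions on the lower and the upper side pooled.

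The focal regions with the strongest acetylation had most of their length acetylated. Positions are given on mm9, counted from 1. The first lay on chromosome 2 from 25052393 to 25054277 with an H3K27ac fold of 16.3 and an H3K4me1 fold of 7.16, from 54 and 33 summit reads. Its nested region was 1338 bp wide and covered 71.0% of it, and the summits were 447 bp apart. The second, on chromosome 3 from 65462055 to 65463942, had the same H3K27ac fold of 16.3 over a lower H3K4me1 fold of 5.48, was 82.0% acetylated, and had summits 270 bp apart. The third and the fourth lay on chromosome 8. That from 123710003 to 123711739 had folds of 15.4 for H3K27ac and 8.42 for H3K4me1, and that from 86710177 to 86712140 had 13.6 and 5.69. The fifth, on chromosome 14 from 103321264 to 103322935, had 13.3 and 4.84. All 5 were wider than 1600 bp and between 57.3% and 82.0% acetylated, and in none were the summits within 100 bp.

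Of the 5 focal regions with the strongest H3K4me1, 4 had an H3K27ac fold between the quartiles of all nested regions, at 3.25 to 4.43, and the fifth had more. The first lay on chromosome 19 from 32245537 to 32247058, with an H3K4me1 fold of 12.4 from 58 reads and an H3K27ac fold of 4.43 from 14 reads. Its nested region was 444 bp wide and the summits were 21 bp apart. The second, on chromosome 11 from 49975036 to 49976759, had folds of 11.8 and 4.14 and summits 84 bp apart. It lay 11.6 kb from the next region of either mark, the farthest of the 5. The third, on chromosome 4 from 32459325 to 32460336, combined an H3K4me1 fold of 11.6 with an H3K27ac fold of 3.25 from 10 reads, and its summits were 33 bp apart. The fourth, on chromosome 8 from 90816821 to 90818180, had 11.6 and 3.55, with summits 436 bp apart. The fifth, on chromosome 18 from 75038960 to 75039744, had 11.4 and 6.78 in 785 bp, and its local H3K27ac background was 1.19 times the genome-wide level. In 4 of these 5 the summits lay within 100 bp, whereas none of the 5 most acetylated did so. So few regions, picked from the ends of the range, support no general statement.

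The narrowest and the widest focal regions differed in how far apart their summits could lie. The 3 narrowest lay on chromosome 1 from 163587735 to 163588234, on chromosome 11 from 94538938 to 94539437 and on chromosome 5 from 133111530 to 133112030. Their summits were 9, 29 and 158 bp apart and their H3K27ac folds were 3.68, 3.25 and 3.71. Of the 10 regions of exactly 2000 bp, the first 3 by position lay on chromosome 1 from 140194885 to 140196884, on chromosome 2 from 144039227 to 144041226 and on chromosome 8 from 18767263 to 18769262. In these the summits were 133, 188 and 809 bp apart, the H3K27ac folds were 3.55, 8.08 and 4.52, and 12.1%, 40.5% and 30.1% of the length was acetylated.

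Most focal regions stood among other marked regions. The gap to the next H3K4me1 region had a median of 1035 bp (quartiles 334 and 3943 bp), and the gap to the next H3K27ac region a median of 3538 bp (quartiles 1043 and 9818 bp). Regions of 500 to 2000 bp without H3K27ac lay slightly farther from the next H3K27ac region, at a median of 4560 bp (quartiles 1471 and 13390 bp). In all 6 width bins the median gap was shorter for focal regions, at 3400 to 3685 bp against 4304 to 4976 bp. These medians lay within the quartile ranges of both classes over all widths, and quartiles within the bins were not computed. The median gap was 3684 bp for regions with 1 protruding H3K27ac region and 2597 bp for those with 2 or more. A shorter gap than without H3K27ac was thus not particular to the focal regions. Other H3K27ac was found within 100 kb of all but 1.14% of focal regions. The like share was 2.48% without H3K27ac, 0.804% with 1 protruding region and 0.802% with 2 or more. The most isolated focal region lay on chromosome 10 from 32609905 to 32610765. It was 1014 kb from the next region of either mark, with folds of 5.02 for H3K27ac and 3.79 for H3K4me1. The next were on chromosome 3 from 47884220 to 47885132, 587.4 kb from any other region (4.64 and 4.84), and on chromosome 5 from 51119816 to 51120773, 244.2 kb from any (3.84 and 5.69).

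Nested single regions were a larger part of sparse acetylated domains than of dense ones. Joining H3K27ac regions across gaps up to the limit usual in super-enhancer calling, which lies between 12 and 13 kb, gave 29687 autosomal domains, and 8355 of these held a focal region. The nested regions made up 11.9% of all autosomal H3K27ac regions. They made up 15.5% of the H3K27ac regions that were alone in their domain (2248 of 14512), 13.9% in domains of 2 to 4 regions, 10.7% in domains of 5 to 19, and 7.57% in domains of 20 or more (1127 of 14882). In the 297 domains with the largest acetylated length they made up 6.61%. The rule itself favours this fall, since an H3K27ac region that shares its H3K4me1 region with another is left out. An H3K27ac region alone in its domain has no near neighbour to share with. How much of the fall comes from the rule was not tested. The medians of the focal regions themselves varied little with their place. The 2248 that were alone and the 1127 in the densest domains had the same median H3K27ac fold of 3.84 (quartiles 3.25 and 4.43 in both) and the same median H3K4me1 fold of 5.27. Their summits were a median of 215 and 205 bp apart. Quartiles of H3K4me1 fold were 4.26 and 6.11 for those alone, and 4.21 and 6.53 in the densest domains. The other 7623 focal regions had a median H3K27ac fold of 3.84 (quartiles 3.25 and 4.72). Their median H3K4me1 fold was 5.44 (quartiles 4.42 and 6.53), and their summits were a median of 204 bp apart.

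Focal regions also lay near each other in places. The median gap between neighbouring focal regions was 72125 bp, and 12.8% of the gaps were 10 kb or less. Of 2463 windows of 1 Mb, 599 held none, the median was 3 and the highest count 22. The closest run lay on chromosome 11 from 8506984 to 8586441, where 9 of the 20 H3K4me1 regions of 500 to 2000 bp were focal regions, and 9 of the 17 H3K27ac regions were nested in them. Their H3K27ac folds were 2.66 to 5.32, their H3K4me1 folds 3.02 to 6.71, and their summits 34 to 640 bp apart. A run on chromosome 3 from 109104526 to 109191817 held 8, with 22 H3K27ac regions in all, H3K4me1 folds of 3.17 to 8.42 and summit distances of 142 to 839 bp. A run on chromosome 13 from 45935201 to 46031975 also held 8, with 29 H3K27ac regions in all and summit distances of 83 to 390 bp. None of the nested regions in these runs exceeded an H3K27ac fold of 5.61.

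The share of H3K4me1 regions with a single nested H3K27ac region was similar on the 19 autosomes. It ranged from 13.8% on chromosome 9 (interval 12.7 to 14.8%) to 16.4% on chromosome 6 (interval 15.3 to 17.6%). Density per length varied more, from 3.79 focal regions per Mb on chromosome 12 to 5.97 on chromosome 11, and went with the density of all H3K4me1 regions of that width. That density was 25.99 and 42.3 per Mb on these chromosomes. Median summit distances lay between 188 bp on chromosome 15 and 232 bp on chromosome 17, and the median H3K27ac fold was 3.84 on each autosome. A local background more than 5% above the genome-wide level was found at 33.4% of focal H3K4me1 summits, against 37.4% of all autosomal ones. For H3K27ac it was found at 26.7% of nested summits, against 26.4% of all.

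**Figure D5:**
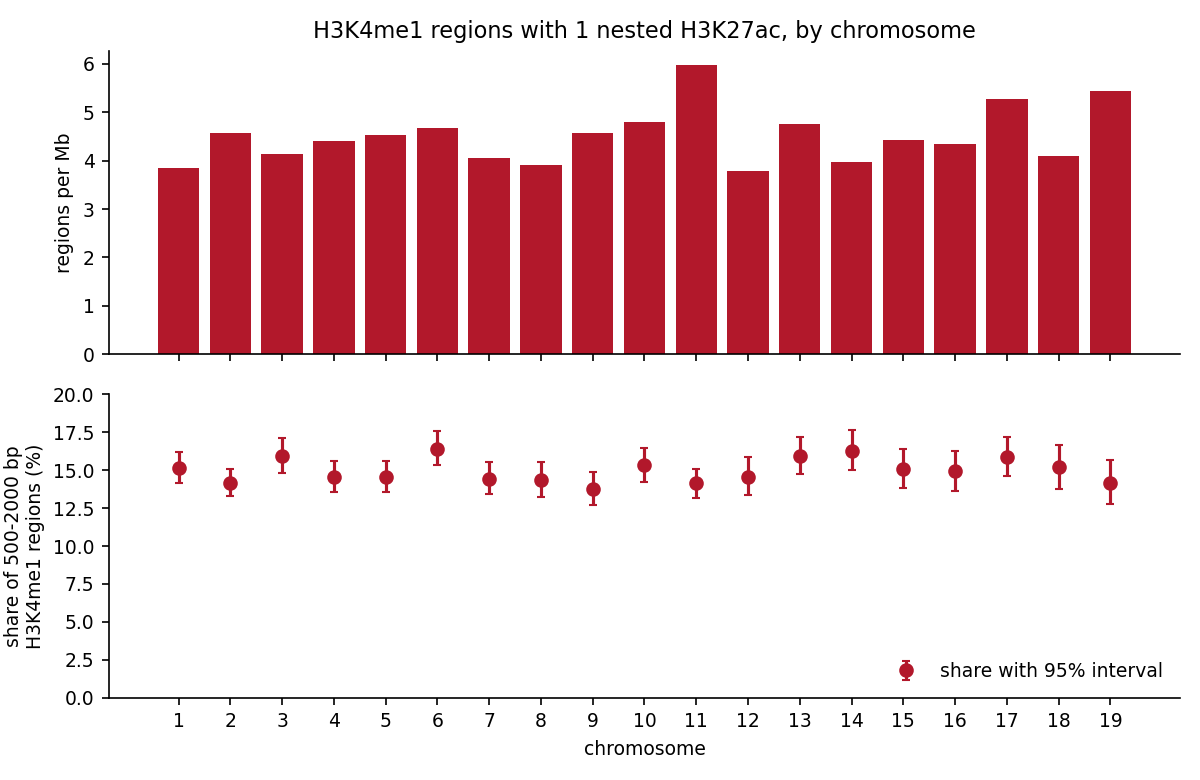
Top, focal regions per Mb of mm9 chromosome length on the 19 autosomes. Bottom, the share (%) of H3K4me1 regions of 500 to 2000 bp that are focal regions, with exact 95% binomial intervals. Density ranges from 3.79 to 5.97 per Mb, while the share stays between 13.8% and 16.4%.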

How the data were processed

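Peak lists of the H3K27ac and the H3K4me1 library were used, each called on 1 library. The submitters' processing notes name Bowtie2 2.0.6, MACS2 2.0.10.20131216 and mm9. Filters, options and the control given to the peak caller are not given in the sources used here. Per the labels' protocols, DNA was sheared to fragments, immunoprecipitated and made into libraries with a ThruPLEX kit. The deposited fold is the authors' ratio of summit pileup to local background. For each summit the authors deposited a −log10 p and a −log10 q. The lists end at a −log10 q of 1.30 for H3K27ac and 1.31 for H3K4me1, near a q-value of 0.05. The deposited score was not used. The input library was not analysed here.

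Reads and local background at a summit were recovered from fold and −log10 p, assuming that fold is (reads + 1)/(background + 1) and p the Poisson probability of more reads. With whole reads the formula met the −log10 p of all 248440 summits within 0.001. The genome-wide background, taken as the commonest local value, was 2.38 reads for H3K27ac and 3.75 for H3K4me1, and a deeper library calls weaker regions. Overlap means 1 bp or more. Widths, gaps and summit distances come from the deposited intervals, and chromosome lengths from GenomeInfoDb 1.38.1. Interval functions and read recovery were tested on simulated data. The named regions were the 5 of highest fold in each mark, the 3 most isolated, narrowest and widest, and the 3 closest runs within 100 kb. The regions, classes and lists were chosen with earlier results of these data known. Planned gene start sites, sequences and motifs were not used, because the gene tables at hand are on GRCm38. Alternatives changed width limits, nesting, the q threshold, joining, background and isolation. Software was R 4.3.3 and Python 3.11.15 with scipy 1.17.1, pandas 2.3.3, numpy 2.4.6 and matplotlib 3.10.9.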

Additional observations from a re-analysis of the deposited data

Results flagged for a closer look

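Chromosome X, which the choice of regions leaves out, held 67 H3K4me1 regions of 500 to 2000 bp with 1 nested H3K27ac region among 1301 of that width. They are listed because they lie outside the data described above, and any count over 3 would have been listed, so the listing itself shows nothing of their number. The share was 5.15% (exact 95% interval 4.01 to 6.49%), against 14.9% on the autosomes. H3K27ac in any arrangement was also rarer on X. It was met by 239 of the 1301 regions, against 28412 of 73633 on the autosomes, so the lower share is not particular to nesting. The 67 regions had a median H3K27ac fold of 3.84 and a median H3K4me1 fold of 4.42, and their summits lay a median of 262 bp apart. No test was made of these differences.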

How the results depend on the processing

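Of 45 alternative values from 9 settings, 11 stayed within 1.5 times the count, inside the interval of the share or median, or at the same second decimal of the ratio, 34 moved and none reversed. The setting that left out H3K4me1 neighbours was chosen after seeing the data. Joining H3K27ac regions within 200 bp moved none of the 5 results. The number of regions (10998) became 3376 at 500 to 1000 bp, 4270 at a −log10 q of at least 5 in both lists, 4466 with that limit for H3K27ac only, 6277 without raised local background, 2248 with no other H3K27ac within the joining limit of between 12 and 13 kb and 5574 with no other H3K4me1 within 1 kb. The share of regions of that width (14.9%) was, in the same order, 8.49%, 7.06%, 6.07%, 13.7%, 3.05% and 16.5%, and it was 22.5% at 1000 to 2000 bp and 22.0% when only the summit had to lie inside. The median summit distance (207 bp) was 141 bp at 500 to 1000 bp, 255 bp at 1000 to 2000 bp, 229 bp with the summit inside, 214 bp and 216 bp with the q limits, 178 bp without raised background and 215 bp with no other H3K27ac near. The share with the H3K27ac summit in the middle 20% (31.1%) was 23.9% with the summit inside, 33.6% and 33.5% with the q limits, 32.6% with no other H3K27ac near and 32.7% with no other H3K4me1 near. The ratio of median H3K4me1 fold (1.20) was 1.15 at 500 to 1000 bp, 1.12 at 1000 to 2000 bp, 1.19 with the summit inside, 1.22 and 1.29 with the q limits, 1.23 without raised background, 1.19 with no other H3K27ac near and 1.19 with no other H3K4me1 near. Narrower settings hold fewer regions by construction. The base of the share stayed at 73633 regions with the q limit for H3K27ac only and with no other H3K27ac near. Those shares fell with the count alone. The base was 45759 without raised background and 33818 with no other H3K4me1 near, so the shares are not like for like. For all other changes the cause was not tested. No paired analysis was possible because a mark was measured in 1 library only. The H3K27ac list holds no summit of fewer than 8 reads, and acetylation weaker than that counts as none.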
